A study of Mus musculus with 12 samples.

Results

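Lag3, Havcr2, Tigit, Cd160, Cd244, Entpd1 and Slamf6 encode 7 surface proteins of CD8+ T cells that are known as inhibitory or exhaustion-associated receptors outside the CD28 family. They were chosen by name, with earlier results of these data known. All 7 were found among the 11022 genes of the expression table, so no member was lost to the filter on low counts. RNA sequencing compared 12 cultures of cytotoxic T lymphocytes (CTL) grown from female P14 mice, aged 9 to 13 weeks, whose CD8+ T cells carry 1 transgenic T cell receptor (TCR) for the gp33 peptide of lymphocytic choriomeningitis virus. In every culture lymph node or spleen cells had been activated for 48 h with peptide, IL-2 and IL-12 and grown for 5 further days in IL-2 at 20 ng/mL, and CTL then rested for 1 h in that medium. The 4 groups of 3 cultures were unstimulated CTL, CTL given 100 ng/mL gp33 peptide for 4 h (TCR), CTL given peptide with 10 µM IC87114, which inhibits the p110δ form of the lipid kinase PI3K (TCR + PI3Kdi), and CTL given peptide with 2 µM PD184252, an inhibitor of MEK1/2, the kinases that activate ERK1/2 (TCR + MEKi). DMSO served as vehicle. All groups share the transgenic receptor, the earlier activation and the IL-2, so the unstimulated cultures are differentiated effector cells and not naïve cells. The methods give no sorting step for these CTL, and no group received an inhibitor without peptide.

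Inhibitory receptors are induced by antigen receptor signalling and, when engaged by ligands on other cells, restrain the T cell that carries them. LAG3 is a relative of CD4 that binds MHC class II, TIM-3 (the product of Havcr2) binds galectin-9 and CEACAM1, TIGIT competes with the activating receptor CD226 for the poliovirus receptor, and CD160 is anchored in the membrane by a lipid and binds HVEM. CD244 (2B4) and Slamf6 (Ly108) belong to the SLAM family, whose signals can activate or inhibit depending on the adaptors bound to their tails, and CD39 (the product of Entpd1) is an ectoenzyme that degrades extracellular ATP towards adenosine. Sustained co-expression of several inhibitory receptors marks exhausted CD8+ T cells in chronic infection and tumours, while their transient expression also accompanies normal activation.

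Values are FPKM, fragments per length of exon and per library, as scaled by the authors. They are per length and can therefore be compared between genes. Means are over 3 cultures, with the SD. A gene was called when the adjusted p of limma (Benjamini-Hochberg over 11022 genes) was under 0.05 and the change was more than 2-fold, and "rose" and "fell" are used for called genes. All fold changes of the model are differences of log2(FPKM + 0.1). The comparisons with TCR share the same 3 TCR cultures, and those with unstimulated CTL share the same 3 unstimulated cultures.

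Depth was not in the table. An estimate from the spacing of low FPKM gave roughly 7580000 to 13360000 reads per culture, and 2 to 73 genes were at 0. All 10 CD8 T cell markers looked for were in the table, with a mean Cd8a level of 221 to 417 FPKM over the groups. None of 5 B cell and none of 4 erythroid markers was in the table, whereas 1 of 7 macrophage, 4 of 8 dendritic cell, 2 of 5 NK cell and 3 of 4 CD4 or regulatory T cell markers were. The summed FPKM of the last 4 lists was between 1.96 and 22.4 in every culture, against 10488 to 47977 for the CD8 T cell list. The latter holds effector genes beside lineage genes. The highest of them in TCR were Ifng and Gzmb, with means of 29597 and 13005 FPKM there and 72.4 and 8740 FPKM in unstimulated CTL. Of the 4 low sums, that of the macrophage list overlapped between all groups, and the others differed between some groups. The dendritic cell sum was 9.28 to 16.7 FPKM in unstimulated CTL, 17.3 to 22.4 in TCR, 9.61 to 15.3 in TCR + PI3Kdi and 15 to 18.5 in TCR + MEKi. Among its 4 genes, Zbtb46 had means of 0.027 FPKM in unstimulated CTL and 3.49 in TCR, and Cd74 of 1.35 and 7.22. Itgax had means of 0.41 and 0.53 FPKM, and H2-Ab1, the highest of the 4, was lower in TCR (10.8 and 8.60). The NK cell sum was 5.35 to 6.6 FPKM in unstimulated CTL, 2.54 to 2.78 in TCR, 3.44 to 3.89 in TCR + PI3Kdi and 1.96 to 2.42 in TCR + MEKi. The part of other cells in the results was not tested. In bulk RNA, fewer cells that express a gene and less RNA per cell cannot be told apart.

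The 7 genes fell into 3 patterns. They were chosen with earlier results of these data known, as were the gene lists below. Counts beside shares of all genes are therefore descriptions without a test. TCR triggering raised Lag3, Havcr2, Tigit and Cd160, which is 4 of 7 members against 8.87% of all genes called higher in this comparison. It lowered 1 member, Entpd1, where 11.1% of all genes were called lower. Cd244 and Slamf6 were called in neither direction. The median difference of the 7 members was 1.45 on the log2 scale, and that of all genes was −0.01. In the presence of IC87114 no member passed both limits against TCR, where 1.88% of all genes did (0.499% of all genes higher and 1.38% lower). With PD184252, 2 of 7 members passed both limits, where 3.49% of all genes did. These were Tigit and Cd160, which fell against TCR, where 2.51% of all genes were called lower, and no member rose, where 0.98% of all genes were called higher.

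**Figure D1:**
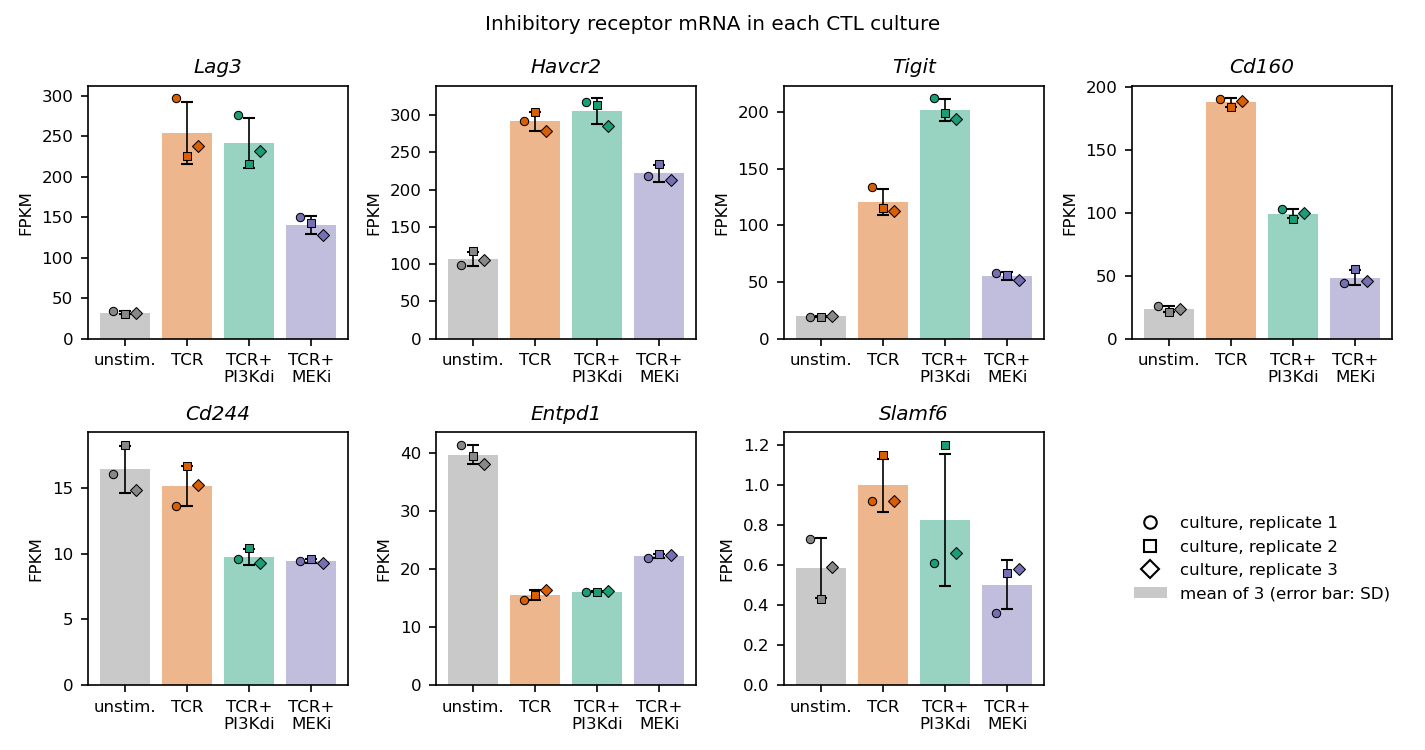
FPKM of the 7 genes in each of the 12 cultures (points) with the mean and SD of each group (n = 3), on axes that differ between genes. Lag3, Havcr2, Tigit and Cd160 lie lowest in unstimulated CTL, Entpd1 lies highest there, and Tigit is the only one of the 7 whose TCR + PI3Kdi cultures all lie above its TCR cultures.

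Lag3 lies on the minus strand of chromosome 6 (chr6:124904361-124911705, GRCm38), with 9 merged exons and 2109 exon bases. In unstimulated CTL it was at 34.1, 30.31 and 31.7 FPKM in replicates 1 to 3, and after TCR triggering at 297.23, 225.08 and 238.46 FPKM. The groups lay far apart, and the first TCR replicate was the highest of all 12 cultures. With IC87114 the 3 cultures had 276.44, 216.17 and 232 FPKM, inside the range of the TCR cultures at the upper end and just below it at the lower end. With PD184252 they had 149.94, 143.07 and 128.4 FPKM, which lies between the unstimulated and the TCR cultures with no overlap.

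Lag3 rose 7.92-fold on TCR triggering, from 32.0 ± 1.92 to 254 ± 38.4 FPKM (log2 change 2.97, SE 0.10, adjusted p = 2.82e-12). The difference between TCR + PI3Kdi (242 ± 31.2 FPKM) and TCR was −0.07 on the log2 scale, with a 95% interval of −0.29 to 0.15 (adjusted p = 0.675). The level was lower with IC87114 in 3 of 3 same-numbered cultures. With the replicate block the adjusted p was 0.468. In the fit without the block, the sign turned when the first TCR replicate (0.05) or the second TCR + PI3Kdi replicate (0.0086) was left out. Leaving out 1 culture there also leaves its same-numbered culture without a partner. The TCR + MEKi level was 0.554 times the TCR level (log2 difference −0.84, SE 0.10, adjusted p = 2.33e-05), which is lower in 3 of 3 same-numbered cultures but short of 2-fold. Against unstimulated CTL the TCR + MEKi cultures stood 4.38-fold higher (log2 change 2.13, adjusted p = 1.97e-10). Among all genes, Lag3 moved from a level above 77.5% of them in unstimulated CTL to one above 97.2% after TCR triggering.

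Havcr2 lies on the plus strand of chromosome 11 (chr11:46454935-46481255), with 7 merged exons and 2721 exon bases. It was the highest of the 7 genes in all 4 group means. The unstimulated cultures had 98.52, 116.94 and 104.92 FPKM and the TCR cultures 292.11, 304.53 and 278.85 FPKM. With IC87114 the values were 317.57, 313.68 and 285.68 FPKM, which overlap those of the TCR cultures. With PD184252 they were 218.14, 234.46 and 213.12 FPKM, below every TCR culture and above every unstimulated one.

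Havcr2 rose 2.73-fold on TCR triggering, the smallest rise of the 4 receptors (107 ± 9.35 to 292 ± 12.8 FPKM, log2 change 1.45, SE 0.07, adjusted p = 7.44e-11). TCR + PI3Kdi (306 ± 17.4 FPKM) differed from TCR by 0.07 on the log2 scale, with a 95% interval of −0.08 to 0.21 (adjusted p = 0.509). TCR + MEKi (222 ± 11.2 FPKM) stood at 0.760 times the TCR level (log2 difference −0.40, SE 0.07, adjusted p = 0.000415). Both of these depended on the scaling. Every culture was also rescaled to 1 common FPKM sum (the TPM scale). The median log2 difference of all genes against TCR was then 0.19 for TCR + PI3Kdi and 0.26 for TCR + MEKi. On this scale the Havcr2 differences became 0.25 (adjusted p = 0.0105) and −0.13 (adjusted p = 0.108).

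The 250 bases before the annotated start of Havcr2 (RefSeq, GRCm38.p6, plus strand, chr11:46454681-46454930) are shown as a description of the sequence. Whether they bear on the level of the gene was not tested. Capitals mark matches to an AP-1 motif (TGANTCA) at −200 and a RUNX motif (TGTGGTT) at −46.
Havcr2 promoter: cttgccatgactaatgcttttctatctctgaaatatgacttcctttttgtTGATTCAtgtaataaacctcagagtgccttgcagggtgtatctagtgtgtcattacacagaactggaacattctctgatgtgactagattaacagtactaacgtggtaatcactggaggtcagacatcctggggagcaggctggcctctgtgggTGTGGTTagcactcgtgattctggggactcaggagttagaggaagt

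Tigit lies on the minus strand of chromosome 16 (chr16:43648867-43664146), with 4 merged exons and 919 exon bases. Its unstimulated cultures had 19.23, 19.42 and 20.25 FPKM and its TCR cultures 134.2, 114.97 and 113.09 FPKM. With IC87114 the values were 212.63, 199.81 and 193.88 FPKM, every one above every TCR culture. With PD184252 they were 58.35, 55.89 and 51.35 FPKM, every one below. The 4 groups did not overlap anywhere, in the order TCR + PI3Kdi, TCR, TCR + MEKi and unstimulated.

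Tigit rose 6.15-fold on TCR triggering (19.6 ± 0.542 to 121 ± 11.7 FPKM, log2 change 2.61, SE 0.07, adjusted p = 1.19e-13). TCR + PI3Kdi stood a further 1.67-fold higher, at 202 ± 9.58 FPKM (log2 difference 0.75, SE 0.07, adjusted p = 4.33e-06), which is under the 2-fold limit. A larger difference in either direction was found for 4.26% of all genes. Against unstimulated CTL the TCR + PI3Kdi level was 10.3-fold higher (log2 change 3.36, adjusted p = 1.23e-14). TCR + MEKi fell to 0.457 times the TCR level, at 55.2 ± 3.55 FPKM (log2 change −1.13, SE 0.07, adjusted p = 2.60e-08). On the TPM scale this last change was −0.86 and no longer 2-fold.

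Cd160 lies on the minus strand of chromosome 3 (chr3:96798763-96829351), with 6 merged exons and 2642 exon bases, of which 68 overlap exons of Pdzk1 on the opposite strand. The library kit kept strand, and whether counting used it is not stated. Unstimulated cultures had 25.65, 21.27 and 23.46 FPKM and TCR cultures 190.51, 183.57 and 188.35 FPKM. With IC87114 the values were 102.86, 95.11 and 99.86 FPKM, and with PD184252 44.45, 55.1 and 45.75 FPKM. The 4 groups again did not overlap, but the order differed from that of Tigit, with TCR highest, then TCR + PI3Kdi, TCR + MEKi and unstimulated.

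Cd160 rose 7.99-fold on TCR triggering (23.5 ± 2.19 to 187 ± 3.55 FPKM, log2 change 3.00, SE 0.08, adjusted p = 1.25e-13). TCR + PI3Kdi (99.3 ± 3.91 FPKM) stood at 0.530 times the TCR level (log2 difference −0.92, SE 0.08, adjusted p = 2.31e-06), close to the 2-fold limit but short of it. TCR + MEKi (48.4 ± 5.81 FPKM) fell to 0.258 times the TCR level (log2 change −1.96, SE 0.08, adjusted p = 1.34e-09). A larger difference for TCR + MEKi was found for 0.68% of all genes.

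The promoters of Tigit and Cd160 are shown in the same way. The levels of this pair moved apart with IC87114 and fell together with PD184252, and a part of the promoters in this was not tested. RefSeq lists 1 start for Tigit (minus strand, chr16:43664185-43664434) and 2 for Cd160 (minus strand, chr3:96829352-96829601 and chr3:96814522-96814771). Capitals mark matches to the RUNX motif (read as AACCACA on the other strand), to a short NFAT motif (GGAAA, or TTTCC) and to a T-box motif (TCACACC, or GGTGTGA).
Tigit promoter: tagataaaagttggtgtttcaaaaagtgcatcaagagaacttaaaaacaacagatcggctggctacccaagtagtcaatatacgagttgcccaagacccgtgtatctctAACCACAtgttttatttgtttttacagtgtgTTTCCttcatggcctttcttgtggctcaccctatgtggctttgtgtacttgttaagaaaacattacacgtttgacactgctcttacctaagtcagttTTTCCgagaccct
Cd160 promoter 1: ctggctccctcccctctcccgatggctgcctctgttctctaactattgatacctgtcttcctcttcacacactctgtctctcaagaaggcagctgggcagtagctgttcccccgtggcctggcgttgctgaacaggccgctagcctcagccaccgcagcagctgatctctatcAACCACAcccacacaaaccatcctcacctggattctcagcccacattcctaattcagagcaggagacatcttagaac
Cd160 promoter 2: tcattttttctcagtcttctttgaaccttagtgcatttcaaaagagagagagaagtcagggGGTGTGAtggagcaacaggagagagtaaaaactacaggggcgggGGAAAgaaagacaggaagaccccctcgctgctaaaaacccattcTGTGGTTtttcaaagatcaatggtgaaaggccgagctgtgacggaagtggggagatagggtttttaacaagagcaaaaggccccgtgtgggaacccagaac

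RUNX matches lay at −141 in Tigit and at −77 and −101 in the Cd160 promoters, and 4.4% of all 32851 promoters of this length held at least 1. The NFAT letters occurred at −110 and −13 in Tigit, at −145 in Cd160 promoter 2, at −204 in Cd244 and at −233 and −130 in an Entpd1 promoter, and 55.6% of all promoters held them. The T-box match lay at −189 in Cd160 promoter 2, and 3.33% of all promoters held at least 1. AP-1 letters were found in Havcr2 and, at −122, in Cd244, and in 6.75% of all promoters. Both strands were searched, no matches overlapped, and neither the FOXO (TGTTTAC, 3.17% of promoters) nor the NR4A letters (AAGGTCA, 4.08%) were found in the 8 promoters of the 6 members with an entry. Lag3 had no entry. A match is a description of these letters and not of binding.

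Tigit and Cd160 had similar levels in unstimulated CTL, with a Tigit to Cd160 ratio of FPKM of 0.842 ± 0.084. After TCR triggering the ratio was 0.644 ± 0.054, with IC87114 2.04 ± 0.084 and with PD184252 1.15 ± 0.151. The 3 TCR + PI3Kdi cultures had ratios of 2.07, 2.10 and 1.94, above all other cultures, of which the highest was 1.31.

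Entpd1 lies on the plus strand of chromosome 19 (chr19:40612366-40741602), with 17 merged exons and 5580 exon bases. It was the only member whose unstimulated cultures all lay above every other culture, at 41.48, 39.56 and 38.13 FPKM. The TCR cultures had 14.6, 15.55 and 16.35 FPKM and the TCR + PI3Kdi cultures 15.98, 16.09 and 16.22 FPKM, so that these groups overlapped. The TCR + MEKi cultures, at 21.94, 22.54 and 22.42 FPKM, lay between them and the unstimulated ones.

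Entpd1 fell to 0.390 times its unstimulated level on TCR triggering (39.7 ± 1.68 to 15.5 ± 0.876 FPKM, log2 change −1.35, SE 0.06, adjusted p = 3.36e-11). TCR + PI3Kdi (16.1 ± 0.120 FPKM) differed from TCR by 0.06 on the log2 scale, with a 95% interval of −0.07 to 0.18 (adjusted p = 0.523), and on the TPM scale by 0.24 (adjusted p = 0.0222). TCR + MEKi (22.3 ± 0.317 FPKM) stood 1.44-fold above TCR (log2 difference 0.52, SE 0.06, adjusted p = 9.97e-06). Entpd1 was the only member higher with PD184252 than without it, and the only one that TCR triggering had lowered.

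Cd244, annotated as Cd244a, lies on the plus strand of chromosome 1 (chr1:171559193-171609746), with 11 merged exons and 4876 exon bases. Its unstimulated cultures had 16.11, 18.33 and 14.85 FPKM and its TCR cultures 13.61, 16.67 and 15.28 FPKM, and these groups overlapped. Both inhibitor groups lay lower, at 9.63, 10.42 and 9.27 FPKM with IC87114 and at 9.42, 9.59 and 9.29 FPKM with PD184252. They overlapped each other and neither of the other groups.

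TCR triggering alone changed the Cd244 level by −0.11 on the log2 scale, with a 95% interval of −0.31 to 0.08 (adjusted p = 0.284). On the TPM scale the difference was −0.52 (adjusted p = 0.00039), where the median difference of all genes was −0.41. TCR + PI3Kdi (9.77 ± 0.588 FPKM) stood at 0.644 times the TCR level (log2 difference −0.63, SE 0.09, adjusted p = 0.000191). TCR + MEKi (9.43 ± 0.15 FPKM) stood at 0.621 times (log2 difference −0.68, SE 0.09, adjusted p = 5.23e-05). Neither reached 2-fold. The inhibitor groups differed from each other by −0.05, with a 95% interval of −0.24 to 0.15 (adjusted p = 0.721). In contrast to the 4 receptors that rose, Cd244 was lower in the inhibitor groups than in unstimulated CTL as well (log2 differences −0.74 with an adjusted p of 5.27e-06 for IC87114, and −0.79 with an adjusted p of 2.93e-06 for PD184252).

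Slamf6 lies on the plus strand of chromosome 1 (chr1:171917515-171953170), with 11 merged exons and 10832 exon bases. It was the lowest of the members, below 1.2 FPKM in all but 1 culture and at 1.2 FPKM in that one, and its level exceeded that of only 5.75% to 11.1% of all genes. Unstimulated cultures had 0.73, 0.43 and 0.59 FPKM, TCR cultures 0.92, 1.15 and 0.92, TCR + PI3Kdi cultures 0.61, 1.2 and 0.66 and TCR + MEKi cultures 0.36, 0.56 and 0.58. With the exon length given here, which can differ from the one the authors used, this is roughly 30 to 128 reads per culture. For every other member the estimate was at least 184. The SE of Slamf6 was the largest of the 7.

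Slamf6 stood 1.71-fold higher in TCR than in unstimulated CTL (log2 difference 0.70, SE 0.25, adjusted p = 0.0235), and on the TPM scale this was 0.34 (adjusted p = 0.247). TCR + PI3Kdi differed from TCR by −0.30, with a 95% interval of −0.84 to 0.25 (adjusted p = 0.421). TCR + MEKi stood at 0.502 times the TCR level (log2 difference −0.89, adjusted p = 0.0135). The log2 difference depended on the pseudocount, at −1.0 with 0.01, which is over 2-fold, and −0.41 with 1. The adjusted p was 0.0509 without the second TCR replicate and 0.0648 without the first TCR + MEKi replicate.

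**Figure D2:**
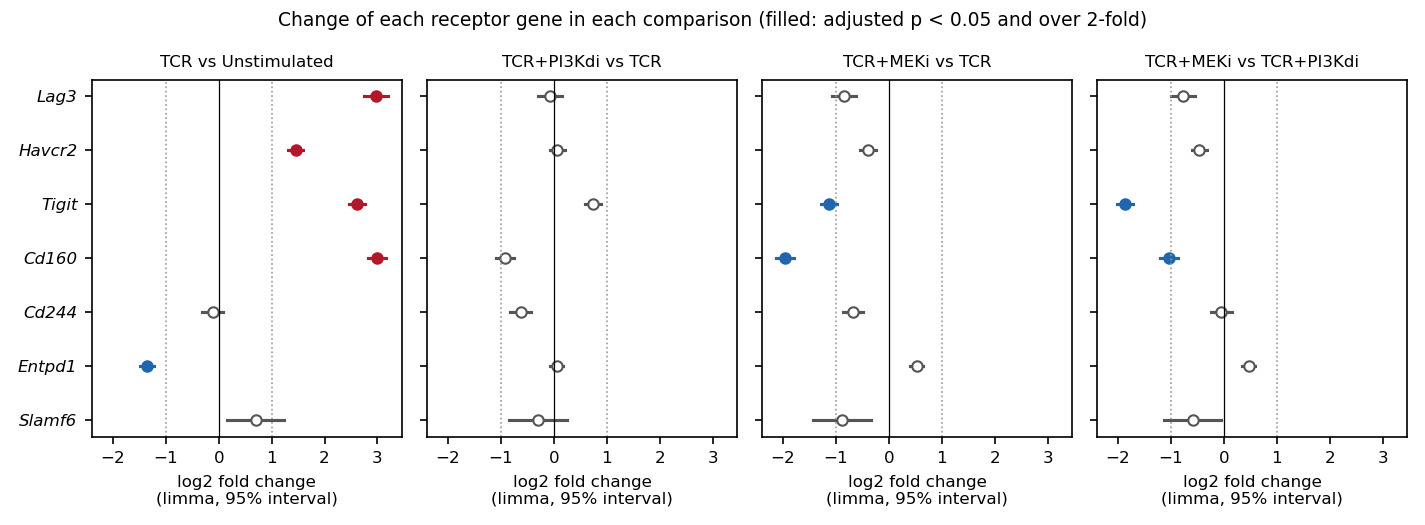
Log2 differences of the 7 genes, with 95% intervals from limma, for TCR against unstimulated, for each inhibitor group against TCR, and for TCR + MEKi against TCR + PI3Kdi. Dotted lines mark 2-fold, and filled points are called genes (red higher, blue lower). With IC87114 all 7 genes lie within 2-fold of TCR, Tigit to the right (0.75) and Cd160 (−0.92) and Cd244 (−0.63) to the left, and with PD184252 Tigit (−1.13) and Cd160 (−1.96) lie beyond it.

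Against TCR, 3 of 7 members had an adjusted p under 0.05 with IC87114 when size was set aside, 1 higher (Tigit) and 2 lower (Cd160 and Cd244), where 25.6% of all genes did. The unadjusted p was under 0.05 for the same number. With PD184252 all 7 had an adjusted p under 0.05, 1 higher (Entpd1) and 6 lower, where 37.1% of all genes did. This did not hold for Slamf6 without the second TCR replicate or the first TCR + MEKi replicate, nor for Havcr2 on the TPM scale, with the adjusted p given above. The median log2 difference of the members was −0.07 with IC87114 and −0.84 with PD184252, and that of all genes was 0.02 and 0.01. Without the fold limit, 6 of 7 members had an adjusted p under 0.05 in TCR against unstimulated CTL, where 68.6% of all genes did. The inhibitors were each used at 1 concentration, which differed.

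The inhibitor groups were also compared with each other. Tigit fell to 0.273 times (log2 change −1.87, SE 0.07, adjusted p = 5.07e-10) and Cd160 to 0.488 times the TCR + PI3Kdi level in TCR + MEKi (log2 change −1.04, SE 0.08, adjusted p = 2.69e-07), where 3.09% of all genes were called and 1.71% were called lower. The Cd160 difference lost its 2-fold size on the TPM scale (−0.96) and without the first TCR + MEKi replicate (−0.98). Lag3 (0.582 times, adjusted p = 5.61e-05) and Havcr2 (0.726 times, adjusted p = 0.000132) were lower and Entpd1 (1.39-fold, adjusted p = 3.32e-05) was higher with PD184252, none of them by 2-fold. For Slamf6 the log2 difference was −0.59 (adjusted p = 0.0966). No member rose, where 1.39% of all genes were called higher. With size set aside, 5 of 7 members had an adjusted p under 0.05 between the inhibitors, where 28.9% of all genes did.

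Against unstimulated CTL, the 4 receptors rose in all 3 stimulated groups. With IC87114 they were 4 of 7 members against 7.16% of all genes called higher, and Entpd1 fell (log2 change −1.30, adjusted p = 8.13e-11), where 7.43% of all genes were called lower. With PD184252 they were again 4 of 7 members against 6.95% called higher, and no member was called lower, where 6.46% of all genes were. Without the fold limit, 6 of 7 members had an adjusted p under 0.05 against unstimulated CTL with either inhibitor, where 62.5% of all genes did with IC87114 and 59.6% with PD184252. The smallest of these rises were those of Havcr2 (2.08-fold, log2 change 1.06, adjusted p = 4.34e-09) and Cd160 (2.06-fold, log2 change 1.04, adjusted p = 3.28e-08) with PD184252. On the TPM scale they were 0.91 and 0.89, below 2-fold, and that of Cd160 was also below 2-fold without the second unstimulated replicate (0.97) or the second TCR + MEKi replicate (0.94).

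The share of the TCR-induced difference in mean FPKM that was present with each inhibitor set the genes side by side. With IC87114 it was 94.6% for Lag3 (92.1% to 96.9% over same-numbered cultures), 107% for Havcr2 (104% to 113%), 97.5% of the fall of Entpd1 (94.9% to 101%), 46.2% for Cd160 (45.5% to 46.8%) and 180% for Tigit (168% to 189%). With PD184252 it was 62.2% for Havcr2 (61.8% to 62.6%), 48.9% for Lag3 (44.0% to 57.9%), 35.2% for Tigit (33.5% to 38.2%), 15.2% for Cd160 (11.4% to 20.8%) and 71.9% of the fall of Entpd1 (70.9% to 72.7%). The ranges of these 5 genes with PD184252 did not overlap each other on this scale. The shares were not computed on the TPM scale, and their size and order can depend on it. For Havcr2 against unstimulated CTL, the log2 changes there were 1.04 in TCR and 0.91 in TCR + MEKi. On the scale used for the shares they were 1.45 and 1.06. The shares are descriptions without a test.

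Summed over the 7 genes, unstimulated CTL had 239 ± 6.65 FPKM and TCR cultures 885 ± 50.4 FPKM. The sum with IC87114 was 875 ± 52.9 FPKM and that with PD184252 498 ± 25.4 FPKM. The composition differed more than the sum between TCR and TCR + PI3Kdi. Tigit made up 13.6% of it in TCR and 23.1% in TCR + PI3Kdi, while Cd160 made up 21.2% and 11.4%. Havcr2 held 44.7% in unstimulated CTL, 33.0% in TCR and 44.5% in TCR + MEKi. Lag3 held 13.4% before triggering and 27.5% to 28.6% in the stimulated groups. Entpd1 held 16.7% before triggering and 1.76% to 4.48% after it.

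**Figure D3:**
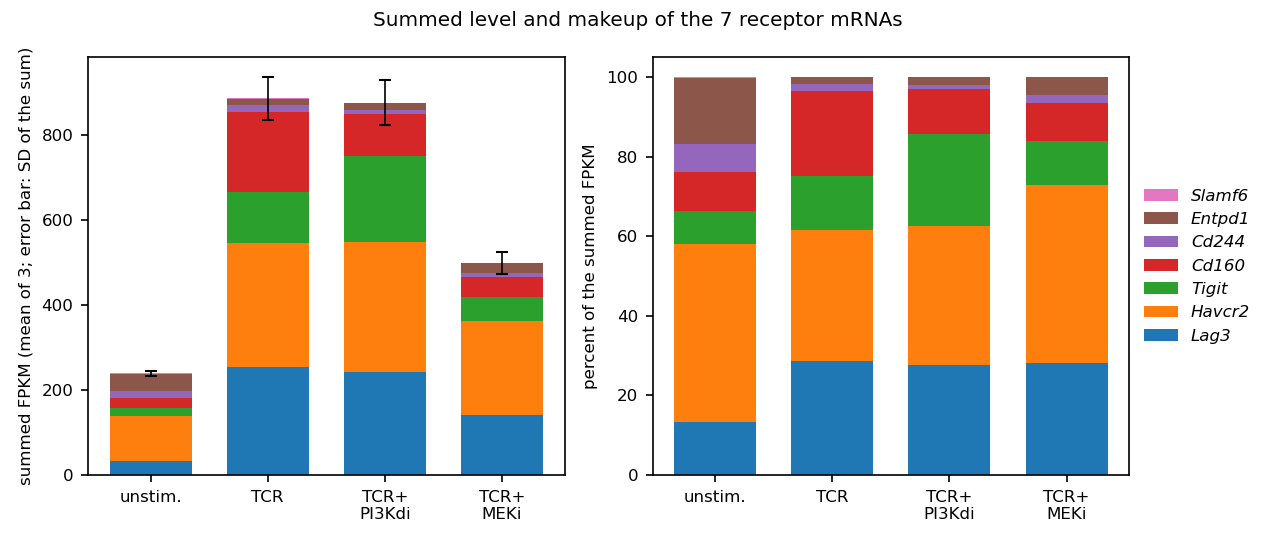
Summed FPKM of the 7 genes per group (left, mean and SD of 3 cultures) and the percent of that sum held by each gene (right). The sums of TCR (885 FPKM) and TCR + PI3Kdi (875 FPKM) are close, while Tigit takes 13.6% of the first and 23.1% of the second.

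Among 8 of 12 listed ligands and partners of LAG3 and TIM-3 that were in the table, 1 rose and 1 fell on TCR triggering, against 8.87% and 11.1% of all genes, and the median log2 difference was −0.03. With PD184252 1 fell, against 2.51% of all genes. Lgals9, which encodes the TIM-3 ligand galectin-9, fell from 40.0 ± 2.78 to 18.3 ± 0.737 FPKM (log2 change −1.12, adjusted p = 2.48e-08). Ceacam1, another TIM-3 ligand, rose from 0.12 ± 0.04 to 1.94 ± 0.293 FPKM (log2 change 3.22, adjusted p = 2.75e-08). With PD184252 Ceacam1 stood at 0.327 ± 0.15 FPKM, a fall against TCR (log2 change −2.32, adjusted p = 7.24e-06), and with IC87114 at 2.37 ± 0.334 FPKM (log2 difference 0.27, adjusted p = 0.456).

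Of the 10 symbols listed for the nectin axis of TIGIT, some of them older and newer names of 1 gene, 4 were in the table. On TCR triggering 2 of them rose and 1 fell, against 8.87% and 11.1% of all genes. Pvr, the shared ligand of TIGIT and CD226, rose from 5.90 ± 1.07 to 16.02 ± 0.816 FPKM (log2 change 1.44, adjusted p = 3.54e-08) and did not pass the test with either inhibitor. Cd226, the activating competitor of TIGIT, fell from 11.2 ± 1.77 to 3.99 ± 0.076 FPKM (log2 change −1.45, adjusted p = 1.30e-07). With PD184252 Cd226 was at 9.49 ± 0.259 FPKM and rose against TCR (log2 change 1.23, adjusted p = 5.65e-06), the opposite direction to Tigit in the same cultures. With IC87114 it was at 3.15 ± 0.592 FPKM (log2 difference −0.35, adjusted p = 0.0625).

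Of 3 listed CD160 partners 2 were in the table. Tnfsf14, which encodes LIGHT, another ligand of HVEM, rose from 3.25 ± 0.216 to 249 ± 3.45 FPKM on TCR triggering (log2 change 6.22, adjusted p = 2.33e-18). It fell with IC87114 to 119 ± 5.29 FPKM (log2 change −1.07, adjusted p = 4.78e-08) and was at 128 ± 7.92 FPKM with PD184252 (log2 difference −0.97, adjusted p = 3.12e-08, under 2-fold). The HVEM gene Tnfrsf14 was called in none of these comparisons. Its log2 difference was −0.79 on TCR triggering (adjusted p = 0.00749). Against TCR it was 0.67 with IC87114 (adjusted p = 0.0477) and 0.65 with PD184252 (adjusted p = 0.0403).

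**Figure D4:**
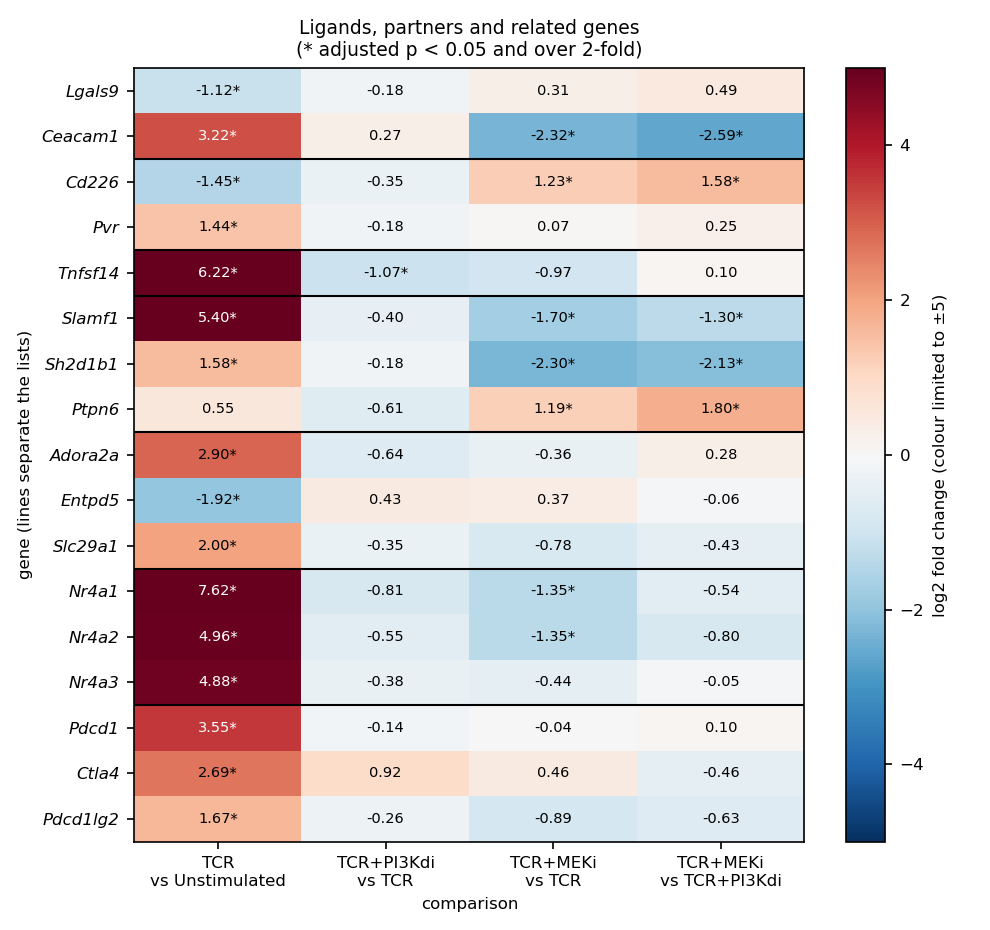
Heat map of log2 differences (red higher, blue lower, colour limited to ±5, called values starred) for the genes named from the ligand, partner and pathway lists (genes down, the same 4 comparisons across). Among the TIGIT axis genes Cd226 lies at −1.45 for TCR against unstimulated and at 1.23 for TCR + MEKi against TCR, and Tnfsf14 has the largest rise of the CD160 partners (6.22).

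Of 14 listed SLAM family genes and adaptors 11 were in the table, and 4 rose and 1 fell on TCR triggering, against 8.87% and 11.1% of all genes. Slamf1, a homophilic receptor, rose from 1.11 ± 0.276 to 49.9 ± 2.20 FPKM (log2 change 5.40, adjusted p = 5.09e-14) and fell with PD184252 to 15.4 ± 1.58 FPKM (log2 change −1.70, adjusted p = 2.70e-07). Sh2d1b1, which encodes the adaptor EAT-2, rose from 0.727 ± 0.201 to 2.35 ± 0.327 FPKM (adjusted p = 3.62e-06) and fell with PD184252 to 0.397 ± 0.075 FPKM (log2 change −2.30, adjusted p = 5.69e-07). Ptpn6, which encodes the phosphatase SHP-1, rose with PD184252 from 30.7 ± 2.43 to 70.0 ± 4.88 FPKM (log2 change 1.19, adjusted p = 2.23e-08), while with IC87114 it was at 20.0 ± 1.35 FPKM (log2 difference −0.61, adjusted p = 3.24e-05).

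The SLAM genes of the table lie in 1 stretch of chromosome 1 (chr1:171559193-171953170), with Cd244 and Slamf6 at its ends. The gene next to Cd244 in this order, Ly9, lies within its span on the opposite strand without shared exon bases. Between them the TCR response ran from a log2 difference of −0.77 for Cd48, the ligand of CD244 (175 ± 11.2 to 102 ± 3.40 FPKM, adjusted p = 2.22e-08), to 5.40 for Slamf1. Slamf7 rose (log2 change 1.08, adjusted p = 1.27e-09), and Cd84 stood at 0.91 (adjusted p = 1.88e-07) and Ly9 at −0.22 (adjusted p = 0.0463). With PD184252 the log2 differences against TCR were −0.96 for Slamf7, −0.86 for Cd84, −0.48 for Ly9 and −0.05 for Cd48. In the main fit Cd48 alone among the 7 genes of the stretch had an adjusted p over 0.05 (0.541). Of all genes, 37.1% had one under 0.05. For Slamf6 it was also over 0.05 without the second TCR replicate or the first TCR + MEKi replicate.

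Among the 10076 genes of the table with a matched position, the neighbours of Lag3 were Cd4, 16140 bases away, and Ptms, on the other side at 1976 bases, both on its strand. Both were looked at after their values had been seen. Cd4 was at 0.773 ± 0.293 FPKM in unstimulated CTL, 2.69 ± 0.168 after TCR triggering, 2.94 ± 0.875 with IC87114 and 0.45 ± 0.193 with PD184252. It rose with TCR (log2 change 1.74, adjusted p = 9.53e-05) and fell with PD184252 (log2 change −2.40, adjusted p = 2.31e-05), at a level far below that of Lag3. Ptms was called in neither comparison (log2 differences 0.69 and 0.18).

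Of 16 listed genes of the purinergic pathway of CD39, 15 were in the table, and 3 rose and 4 fell on TCR triggering, against 8.87% and 11.1% of all genes (median log2 difference −0.07). Adora2a, which encodes a receptor for adenosine, rose from 1.99 ± 0.456 to 15.3 ± 1.74 FPKM (log2 change 2.90, adjusted p = 1.71e-10) and was at 9.78 ± 0.612 FPKM with IC87114 (log2 difference −0.64, adjusted p = 0.00522). Slc29a1, a nucleoside transporter, rose from 39.0 ± 1.42 to 156 ± 10.4 FPKM (log2 change 2.00, adjusted p = 3.26e-13) and stood at 90.9 ± 3.80 FPKM with PD184252 (log2 difference −0.78, adjusted p = 1.65e-07). Entpd5, an intracellular relative of Entpd1, fell from 7.88 ± 0.700 to 2.00 ± 0.081 FPKM (log2 change −1.92, adjusted p = 1.97e-09). With IC87114 1 gene of this list was called against TCR, where 1.88% of all genes were. It was Nt5e, which encodes CD73, the enzyme after CD39. It is named here after its value was seen, and was at 0.38 ± 0.125 FPKM in TCR and 1.27 ± 0.337 FPKM in TCR + PI3Kdi (log2 change 1.52, adjusted p = 0.000464).

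The genes most like each called member were found by the root mean square difference of log2 profiles, each centred on its own mean, over the 12 cultures and 10232 genes. The distance describes shape and not shared control. The nearest to Lag3 were Dennd3 (0.19) and Arl5b (0.20), and to Havcr2 they were Pfkfb3, a glycolytic regulator, and Myo1e (both 0.10). Cd160 was nearest to Plk3 (0.17), at 15.4, 149, 70.5 and 40.6 FPKM in unstimulated, TCR, TCR + PI3Kdi and TCR + MEKi. Near Entpd1 was Cnn2 (0.09), which went from 213 ± 5.65 to 83.4 ± 5.30 FPKM on TCR triggering. Near Tigit were Hs3st3b1 (0.25) and Btg2 (0.37). Btg2, an antiproliferative gene, was at 12.2 ± 0.662, 46.2 ± 3.67, 67.7 ± 2.86 and 29.5 ± 1.58 FPKM in the same order of groups, and like Tigit highest with IC87114.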

How the data were processed

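Messenger RNA of 12 CTL cultures (4 groups of 3, groups from the labels) was sequenced as paired ends in 1 lane. The authors aligned reads to mm10 with STAR 2.4.2a, counted them per RefSeq gene with Subread 1.5.0, removed low-count genes (filterByExpr), scaled by TMM and computed FPKM with the edgeR RPKM function and summed exon length. The deposited FPKM of 11022 genes were used; value columns without a sample numbered 0. Differential expression in the study came from voom on counts, which were not used here.

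Here limma 3.58.1 (R 4.3.3; lmFit, contrasts.fit, eBayes with trend) was fitted to log2(FPKM + 0.1) of all genes and 12 cultures, with 1 mean per group and two-sided tests. The pseudocount of 0.1 understates the change of low genes. Genes were called at an adjusted p under 0.05 and more than a 2-fold change. The procedure was tested on simulated data. Whole reads could not be recovered from the FPKM steps, so depth and reads are rough estimates. Positions are from GENCODE on GRCm38 and promoters from RefSeq. No sequence of a member's protein was used here. The study states that 3 mice gave 3 biological replicates, but not that equal numbers are the same mouse. Deviations from the group means of same-numbered cultures correlated with r of 0.239 to 0.451 (TCR + PI3Kdi and TCR), 0.122 to 0.182 (TCR + MEKi and TCR), 0.137 to 0.149 (both inhibitors) and 0.117 to 0.147 (TCR + MEKi and unstimulated), all over 0.1. Equal numbers were therefore read as likely pairs for these samples, but the main fit did not use the pairing. For TCR and TCR + PI3Kdi against unstimulated they were −0.06 to 0.153 and not all over 0.1. P-values of the main fit measure the spread between cultures, and the replicate block was run only as an alternative.

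The 7 members and the gene lists were chosen with earlier results of these data known. Named beside the members are the 2 genes most like each called member, among genes with a mean FPKM of at least 1 in some group, and up to 3 called genes per list with the largest change, of which some are not reported here. Alternatives were other pseudocounts (0.01 and 1), a fit without genes under a mean FPKM of 1, the TPM scale, quantile normalisation, a replicate block, the compared groups alone, no trend, no fold limit, limma treat against 2-fold and leaving out each culture.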

Additional observations from a re-analysis of the deposited data

How the results depend on the processing

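Of 666 fold changes of the 7 genes recomputed under the alternatives, 634 kept their direction and their side of the limits, 11 lost and 16 gained a call, and 5 turned direction. Many of them could not turn. The filter on mean FPKM, the replicate block, the compared groups alone and no trend leave the fold change itself as it was. The same holds for no fold limit and limma treat, which only change how a gene is called. Of 96 recomputed counts of called genes, 86 stayed within 1.5 times. Those that turned were Lag3 in TCR + PI3Kdi against TCR, on the TPM scale (0.11), with quantile normalisation (0.087) and without TCR replicate 1 (0.052) or TCR + PI3Kdi replicate 2 (0.0086; −0.17 to 0.052 over all single cultures left out), and Cd244 between the inhibitors on the TPM scale (0.030). None of these was called. Single cultures were left out of the fit without the block, so same-numbered cultures lost their partner. On the TPM scale, and with limma treat, 1 member was called in TCR + MEKi against TCR, 1 against TCR + PI3Kdi and 2 against unstimulated. With no fold limit the counts were 3 for TCR + PI3Kdi against TCR, 7 for TCR + MEKi against TCR and 5 between the inhibitors. Leaving out 1 culture gave 1 to 2 calls between the inhibitors, 1 of them without TCR + MEKi replicate 1. With the replicate block the counts stayed at 5, 0, 2, 2, 5 and 4 of 7 in the order of TCR against unstimulated, TCR + PI3Kdi against TCR, TCR + MEKi against TCR, TCR + MEKi against TCR + PI3Kdi and both inhibitors against unstimulated, and no call of a member changed. For TCR against unstimulated, the median log2 difference of all genes was −0.41 on the TPM scale and −0.05 with quantile normalisation. The FPKM sums that the TPM scale makes equal were 470420 to 495945 in unstimulated and 620715 to 666922 in TCR cultures. Why these sums differed was not tested, and neither was the cause of the shift with quantile normalisation. Slamf6 had the fewest estimated reads, about 30 to 128 per culture, and the effect of depth was not tested.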

Other observations

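Transcription factors associated with exhaustion were listed beside the receptors. Of 14, 13 were in the table, 7 rose and 2 fell on TCR triggering, against 8.87% and 11.1% of all genes, and 3 fell with PD184252, against 2.51%. Nr4a1, an orphan nuclear receptor and early response gene, rose from 0.75 ± 0.032 to 169 ± 27.6 FPKM (log2 change 7.62, adjusted p = 1.64e-16) and fell with PD184252 to 65.8 ± 1.06 FPKM (log2 change −1.35, adjusted p = 6.05e-07). Nr4a2 fell by a like amount (log2 change −1.35, adjusted p = 1.43e-07), whereas Nr4a3 was at 294 ± 33.0 FPKM in TCR and 217 ± 15.1 FPKM in TCR + MEKi (log2 difference −0.44, adjusted p = 0.0126). With IC87114 none of the 13 passed both limits, where 1.88% of all genes did. The log2 differences of Nr4a1, Nr4a2 and Nr4a3 against TCR were −0.81, −0.55 and −0.38. The third gene that fell with PD184252, Tbx21, which encodes T-bet, was looked at after its value had been seen, and was at 53.0 ± 6.73 FPKM in TCR, 28.8 ± 4.42 in TCR + PI3Kdi and 24.2 ± 0.381 in TCR + MEKi.

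The CD28-family receptors and ligands, listed for comparison, had 6 of 7 genes in the table, of which 4 rose on TCR triggering, against 8.87% of all genes. None was called against TCR with either inhibitor, where 1.88% of all genes were with IC87114 and 3.49% with PD184252. Pdcd1, which encodes PD-1, was at 210 ± 14.6 FPKM in TCR, 191 ± 11.4 with IC87114 and 205 ± 7.11 with PD184252 (adjusted p = 0.491 and 0.863 against TCR). Ctla4 was at 184 ± 28.8 FPKM in TCR and 349 ± 60.4 with IC87114 (log2 difference 0.92, adjusted p = 0.00125). Pdcd1lg2 was at 27.8 ± 3.01 FPKM in TCR and lower with PD184252 (log2 difference −0.89, adjusted p = 2.49e-06).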
